A study of Mus musculus with 2 samples.

Results

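The mouse genes of the KIT and GDNF signals that act on spermatogonia were followed through the cell classes of the testis in a WT and an Alkbh5 KO library. The group was a named list of 10 genes, Kit, Kitl, Gdnf, Gfra1, Ret, Etv5, Zbtb16, Id4, Sall4 and Lin28a, out of 36547 genes in the count tables, and all 10 were present in both libraries. The samples were testes of C57BL/6 mice at 12 weeks of age, 1 library of the WT genotype and 1 of homozygous Alkbh5 KO (Alkbh5-/-), measured by single-cell RNA-seq with the GEXSCOPE kit on microfluidic devices, with no other treatment. Alkbh5 encodes a demethylase that removes N6-methyladenosine from RNA. The knockout was carried by every cell of the animal, so germ cells and the somatic cells around them both lacked the gene. The study's own text differed on whether a library held 1 mouse or several, and no replicate of either genotype was available. No test between genotypes was therefore made, and the 95% intervals given here cover counting error only.

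As background, KIT ligand (Kitl) is made by somatic cells of the testis, and its receptor tyrosine kinase Kit marks spermatogonia that have begun to differentiate and also Leydig cells. GDNF (Gdnf) is made by Sertoli and peritubular cells and acts on undifferentiated spermatogonia through the co-receptor Gfra1 and the receptor tyrosine kinase Ret, and the transcription factor Etv5 acts downstream of it. Zbtb16 (PLZF), Sall4, Id4 and the RNA-binding protein Lin28a are nuclear or cytoplasmic regulators known from stem and progenitor spermatogonia.

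The WT table held 5756 barcodes with 80283221 UMIs (median 10905.5 per barcode), and 7012 barcodes with 82056760 UMIs (median 9117.5) came from the KO. Both tables held more barcodes than the number of cells the study states, and the filter of over 500 genes removed none, since the smallest barcode had 564 genes. The libraries shared 45 barcode sequences, and a doublet caller marked 4.22% of WT and 4.96% of KO barcodes. Alkbh5 was counted 607 times in the WT library and 5 times in the KO library, in the direction of the labels. The cells formed 17 clusters, which were named from marker genes that did not include the 10 genes, and the 10 genes were also kept out of the features that were clustered. The spermatogonia-like class (15 of 16 markers with a UMI in WT, 16 of 16 in KO) held 188 WT cells, 3.27% of the library, and 1062 KO cells, 15.1%. The Leydig-like class (12 of 12 markers in both libraries) held 92 cells (1.598%) and 1171 cells (16.7%). The Sertoli-like class (14 of 15 markers in WT, with Trf at 0, and 15 of 15 in KO) held 47 cells (0.817%) and 433 cells (6.18%). A UMI somewhere in a class sum is a weak criterion. The rule used for naming, detection in at least 10% of cells at 2-fold or more, was met by 11 of 16 spermatogonia markers. It was met by 12 of 12 Leydig and 15 of 15 Sertoli markers. In the spermatogonia-like class 11 early spermatocyte markers also met it, with a lower mean log2 fold (1.78 against 3.74). Cell shares depend on dissociation and loading as well as on the tissue, and these cannot be told apart here.

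Most of the 10 genes were concentrated in few classes, and the class differed from gene to gene. Kitl was found in Sertoli-like, Leydig-like and endothelial-like cells, Kit in spermatogonia-like and Leydig-like cells, and Sall4 and Lin28a in spermatogonia-like cells. As averages of whole classes, Gfra1 and Id4 had their highest levels outside the spermatogonia-like cells. Most Gfra1 UMIs were in round spermatid-like and most Id4 UMIs in late spermatocyte-like cells. The highest Id4 level of a WT class, 19.1 CPM (6.19 to 44.5) in early spermatocyte-like cells, stood on 5 UMIs, and the interval included the late spermatocyte-like and Sertoli-like levels. Levels are given as CPM, the UMIs of a gene per 1e+06 UMIs of the class, with the summed UMIs of the gene beside them.

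**Figure D1:**
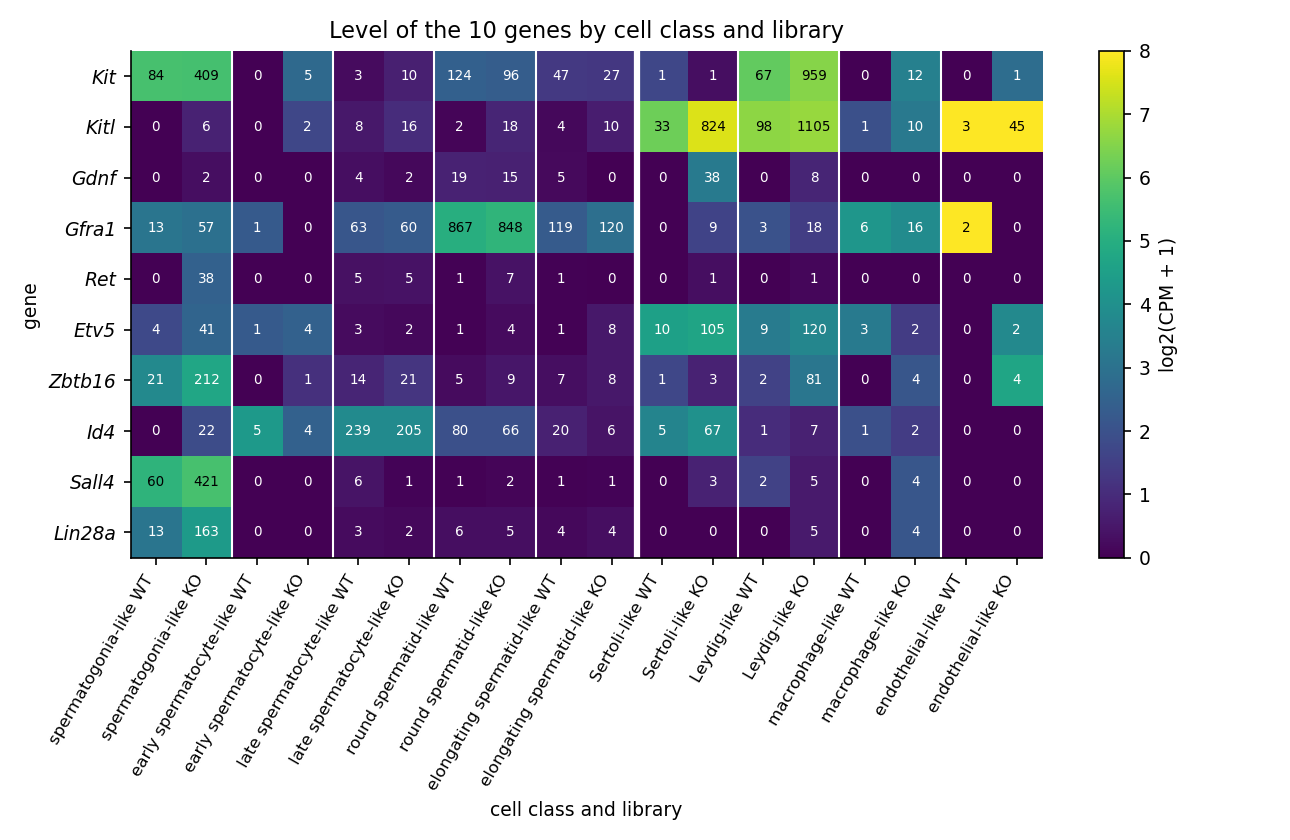
Level of each gene (rows) in each cell class and library (columns), as color on a log2(CPM + 1) scale that saturates at 8, with the summed UMIs written in each field. The endothelial-like WT column is a single cell, so its bright fields stand on 3 UMIs of Kitl and 2 of Gfra1.

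Among the ligands, Kitl in Sertoli-like cells had 33 UMIs and 73.7 CPM (50.7 to 103) in WT and 824 UMIs and 190.2 CPM (177 to 204) in KO. The KO level was 2.58-fold higher, a log2 ratio of 1.37 (0.87 to 1.92), and the intervals did not overlap. In that class 54% of the 11214 genes with at least 20 UMIs were past 1.5-fold higher in KO and 20% past it lower, with a median log2 ratio of 0.72 over all of them, so that a higher value in KO was the common case there. The 18 elongating spermatid markers, all with UMIs in both libraries, made up 15.9% of the UMIs of WT Sertoli-like cells and 2.25% of those of KO, while the 15 Sertoli markers made up 1.18% and 2.94%. With genes higher in germ cells left out of the totals the log2 ratio of Kitl was 1.28, and per UMI of the Sertoli markers, a scaling chosen after seeing the data, it was 0.05. Kitl was therefore higher in KO relative to all transcripts of the class, and close to equal relative to its Sertoli markers.

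In Leydig-like cells Kitl had 98 UMIs and 98.4 CPM (79.9 to 119.9) in WT and 1105 UMIs and 108 CPM (101 to 114) in KO. The log2 ratio was 0.13 (-0.17 to 0.44), an interval that includes no difference. Endothelial-like cells carried a high Kitl level in KO, 285 CPM (208 to 381) from 45 UMIs in 24 cells, and the WT library held only 1 such cell. The share of cells with a Kitl UMI, after each cell was thinned to 5729 UMIs, was 25.6% in WT and 61.3% in KO Sertoli-like cells and 38.8% and 41.8% in Leydig-like cells (unthinned 31.9%, 76.9%, 60.9% and 55.3%). In spermatogonia-like cells, which should lack the ligand, the thinned share was 0% and 0.371% (unthinned 0% and 0.565%). Median depths were 8035 and 9262 UMIs in Sertoli-like, 9921.5 and 7872 in Leydig-like and 7770 and 6884.5 in spermatogonia-like cells. Kitl in the 2 main somatic classes thus stood far above the level found in spermatogonia-like cells.

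Gdnf was sparse everywhere. It had no UMI in the 47 WT Sertoli-like cells, where 3 UMIs equal 6.70 CPM. KO Sertoli-like cells had 38 UMIs, 8.77 CPM (6.21 to 12.0), each in a different cell. The 38 UMIs were 58.5% of all Gdnf UMIs of the KO library, and 31 of the 38 cells also had a Kitl UMI, or 81.6%, against 76.5% of the cells without Gdnf. With the WT sum set to 3 UMIs the KO level was 1.31-fold higher, and the exact interval of the log2 ratio began at 0.02. The ratio against 3 UMIs fell below 1 in the clustering without integration, with thinned cells and per UMI of the Sertoli markers. No direction can therefore be read from so small a WT class. All 28 Gdnf UMIs of the WT library were in germ cells, 19 of them in round spermatid-like cells at 0.689 CPM, where KO had 15 at 0.648 CPM.

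**Figure D2:**
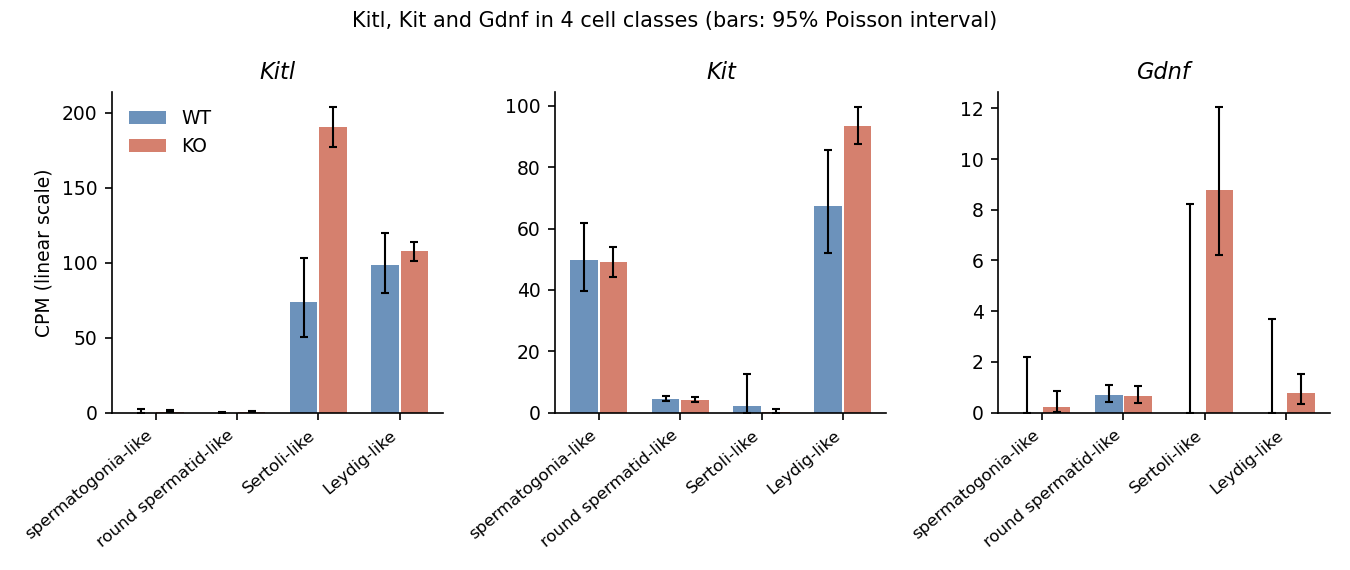
CPM of Kitl, Kit and Gdnf (linear axes) in 4 cell classes for the WT (blue) and KO (red) library, with exact 95% Poisson intervals. Kitl in Sertoli-like cells is the pair whose intervals lie farthest apart, and the upper limit for Gdnf in WT Sertoli-like cells, 8.24 CPM, reaches into the KO interval.

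Of the receptors, Kit differed in spermatogonia-like cells by less than counting error. It had 84 UMIs and 49.9 CPM (39.8 to 61.7) in WT and 409 UMIs and 49.0 CPM (44.3 to 54.0) in KO. The log2 ratio was -0.03 (-0.37 to 0.33), an interval that lies within 1.5-fold in either direction and does not show that the levels were equal. Kit was detected in 32.4% of WT and 28.0% of KO spermatogonia-like cells (thinned 22.1% and 23.3%), against a thinned 2.33% and 0.249% in Sertoli-like cells (unthinned 2.13% and 0.231%).

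Leydig-like cells had a higher Kit level than spermatogonia-like cells in KO, and in WT the intervals overlapped. It was 67.3 CPM (52.1 to 85.5) from 67 UMIs in WT and 93.4 CPM (87.6 to 99.5) from 959 UMIs in KO. The KO level was higher by a log2 ratio of 0.47 (0.11 to 0.85), short of 1.5-fold, in a class where 16.9% of 13252 genes were past 1.5-fold higher, 22.3% past it lower and the median was -0.07. At a finer clustering 15 WT and 87 KO cells formed a stromal fibroblast-like cluster of their own, with Kit at 0 UMIs in WT and 8 UMIs and 10.8 CPM in KO. In the Leydig-like cells of that clustering Kit was 79.2 and 99.8 CPM, a log2 ratio of 0.33. Mast cells are another Kit-bearing cell type of the interstitium. Of 4 mast cell markers only 1 had UMIs in Leydig-like cells, 7.03 CPM in WT and 7.69 CPM in KO, and Cpa3, Tpsab1 and Fcer1a were at 0 in both.

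Receptor and ligand were often seen in the same Leydig-like cell. In KO 335 of 1171 cells had a UMI of both Kit and Kitl, and Kit was found in 51.8% of the cells with Kitl and in 44.1% of those without. In WT 19 of 92 cells had both, and Kit was found in 33.9% of the cells with Kitl and in 44.4% of those without. Cells with both had more UMIs than the class (medians of 9055 against 7872 in KO and 11587 against 9921.5 in WT), so that depth moved with the co-detection, and its part in it was not tested.

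Gfra1, the GDNF co-receptor, differed between the genotypes in spermatogonia-like cells by less than counting error. It had 13 UMIs and 7.72 CPM (4.11 to 13.2) in WT and 57 UMIs and 6.82 CPM (5.17 to 8.84) in KO, a log2 ratio of -0.18 (-1.06 to 0.82). The ratio was 0.31 with doublets removed and -0.61 with thinned cells, so its sign depended on the setting. Ret, the signaling receptor, had no UMI in WT spermatogonia-like cells and 38 UMIs in KO, 4.55 CPM (3.22 to 6.24). With the WT sum set to 3 UMIs, 1.78 CPM, KO was 2.55-fold higher, and the exact interval of the log2 ratio began at 0.98. With thinned cells the log2 ratio against 3 UMIs was 0.56, short of 1.5-fold. Without the subclusters led by spermatid genes it was 0.91. These 38 UMIs were 73.1% of the Ret UMIs of the KO library. Ret was in 32 KO cells, of which 8 also had Gfra1 and 18 also had Zbtb16, while 13.1% of the cells without Ret had Zbtb16.

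The bulk of Gfra1 transcripts lay in haploid cells. Round spermatid-like cells held 867 Gfra1 UMIs in WT, 31.4 CPM (29.4 to 33.6), and 848 in KO, 36.7 CPM (34.2 to 39.2), which were 80.7% and 75.2% of the UMIs of the gene. The KO level was higher by a log2 ratio of 0.22 (0.08 to 0.36), short of 1.5-fold. In the late spermatocyte-like cells the level was 3.26 CPM in WT and 1.53 CPM in KO in the cluster with Piwil1 among its leading genes, 2.09 and 2.45 CPM in that with Pabpc6 and 5.85 and 8.31 CPM in that with Gm14459. It was 27.8 and 31.8 CPM in the Cytl1 cluster of round spermatid-like cells and highest in the Gip cluster at 40.9 CPM (36.8 to 45.4) and 51.1 CPM (45.9 to 56.7). It was lower again at 25.9 and 28.6 CPM in the Cd46 cluster and at 8.95 and 12.4 CPM in the Cst13 cluster of elongating spermatid-like cells. In each library the level peaked in the Gip cluster, and of these 7 clusters that one alone had intervals of WT and KO that did not overlap.

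Thinned shares of cells with a Gfra1 UMI were 16.6% and 19.1% in round spermatid-like cells (unthinned 37.6% and 39.1%) against 0% and 0.505% in Leydig-like cells (unthinned 2.17% and 1.11%). In elongating spermatid-like cells the gene had 119 UMIs and 3.88 CPM in WT and 120 UMIs and 6.58 CPM in KO, a log2 ratio of 0.76 (0.38 to 1.14). In that class Gfra1 was past 1.5-fold higher in KO and Id4 past it lower (20 and 6 UMIs, log2 ratio -0.99, -2.59 to 0.38), of 3 of the genes with at least 20 UMIs, where 30.1% of all genes were past it higher, 6.86% lower and the median was 0.27. The makeup of the class differed between libraries, with 331 of 2734 WT and 319 of 1623 KO cells in the Cst13 cluster and 564 and 155 in the Spem1 cluster. Within the Cst13 cluster, where Gfra1 was highest, the 8.95 and 12.4 CPM were less than 1.5-fold apart and their intervals overlapped. In round spermatid-like cells 1 of 5 of the genes was past it higher, Kitl with 2 and 18 UMIs, against 18.7% of all genes higher and 7.54% lower.

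GENCODE vM21 (GRCm38) places Gfra1 on the minus strand at chr19:58235604-58455909, with the antisense gene Gm16277 inside it. Whether strand was used in counting is not given in the sources used here, so reads of the 2 genes cannot be told apart. Kit lies at chr5:75574916-75656722 on the plus strand, Kitl at chr10:100015630-100100416 on the plus strand and Gdnf at chr15:7810846-7837575 on the plus strand, with no annotated overlap. Ret (chr6:118151745-118197718, minus strand), Etv5 (chr16:22381309-22439719, minus strand) and Zbtb16 (chr9:48654297-48836222, minus strand) also overlap no other annotated gene. Id4 (chr13:48261228-48266026, plus strand), Sall4 (chr2:168748332-168767943, minus strand) and Lin28a (chr4:134003330-134018841, minus strand) have antisense neighbors that gave 20, 1 and 6 UMIs in all.

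Kit had a peak in the same cluster at a lower level. It was below 1 CPM in late spermatocyte-like cells (0.164 CPM in WT, 0.644 CPM in KO), 1.39 and 2.502 CPM in the Cytl1 cluster, and reached 8.48 CPM (6.66 to 10.7) and 7.52 CPM (5.62 to 9.87) in the Gip cluster. Its 124 UMIs in round spermatid-like cells were 38.0% of the Kit UMIs of the WT library, more than the 25.8% in its spermatogonia-like cells. In KO, 96 UMIs in round spermatid-like cells were 6.32% of the gene's UMIs, and the levels of the class, 4.50 and 4.15 CPM, differed by less than counting error (log2 ratio -0.12, -0.52 to 0.28). Counts do not tell a full-length transcript from a shorter one that starts inside the gene.

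**Figure D3:**
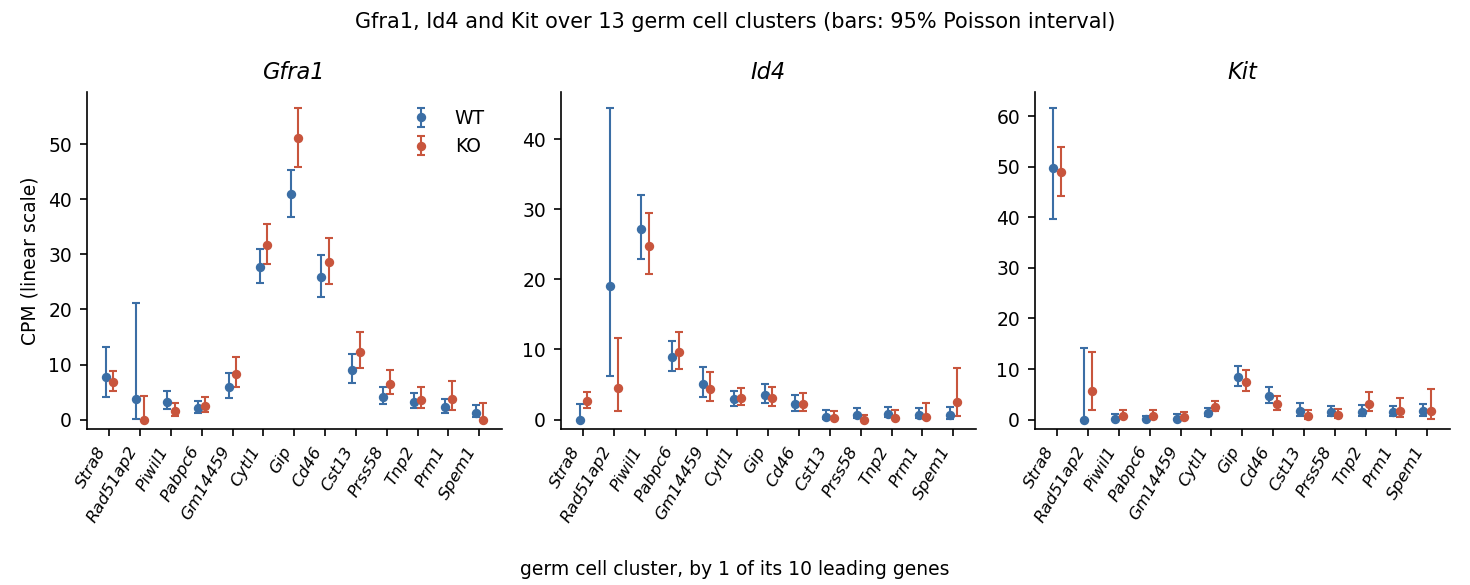
CPM of Gfra1, Id4 and Kit (linear axes) in 13 germ cell clusters, each named by 1 of its 10 leading genes and set in the order spermatogonia-like, spermatocyte-like, round and elongating spermatid-like, for WT (blue) and KO (red) with exact 95% Poisson intervals. Gfra1 peaks in the Gip cluster, Id4 in the Piwil1 cluster and Kit in the spermatogonia-like cluster led by Stra8.

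Of the transcriptional and RNA-binding regulators, Zbtb16 and Lin28a were past 1.5-fold higher in KO spermatogonia-like cells when the class was summed, with intervals of the ratio above 0 on the log2 scale. Zbtb16 had 21 UMIs and 12.5 CPM (7.72 to 19.1) in WT and 212 UMIs and 25.4 CPM (22.1 to 29.0) in KO, a log2 ratio of 1.03 (0.38 to 1.75). Lin28a had 13 UMIs and 7.72 CPM (4.11 to 13.2) in WT and 163 UMIs and 19.5 CPM (16.6 to 22.8) in KO, a log2 ratio of 1.34 (0.52 to 2.28). Sall4 had 60 UMIs and 35.6 CPM (27.2 to 45.9) in WT and 421 UMIs and 50.4 CPM (45.7 to 55.5) in KO, a log2 ratio of 0.50 (0.11 to 0.92). The interval for Sall4 also lay above 0, and its ratio stayed short of 1.5-fold.

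Etv5 and Id4 were too sparse in WT for a direction or a fold. Etv5 had 4 UMIs and 2.37 CPM in WT and 41 UMIs and 4.91 CPM in KO spermatogonia-like cells, a log2 ratio of 1.05 (-0.42 to 2.99). Id4 had no UMI in WT and 22 UMIs, 2.63 CPM (1.65 to 3.99), in KO, 1.48-fold higher than 3 UMIs in WT. The exact interval of its log2 ratio began at 0.14. The ratio against 3 UMIs fell below 1 when cells were thinned or when doublet-rich subclusters were left out. By the summed ratio alone, Ret, Etv5, Zbtb16 and Lin28a were past 1.5-fold higher in KO, 4 of the 8 genes with at least 20 UMIs in the class. None was past it lower. The count includes Etv5, whose interval gives no direction. Over all 13836 genes with that many UMIs 15.1% were past 1.5-fold higher, 17% lower, and the median was 0.03. Ret, Etv5 and Lin28a, and also Gfra1 and Id4, had fewer than 20 UMIs in WT and passed the minimum through their KO sums. Ret and Id4, with no WT UMI, could only appear as higher. With thinned cells Ret was not past the fold.

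**Figure D4:**
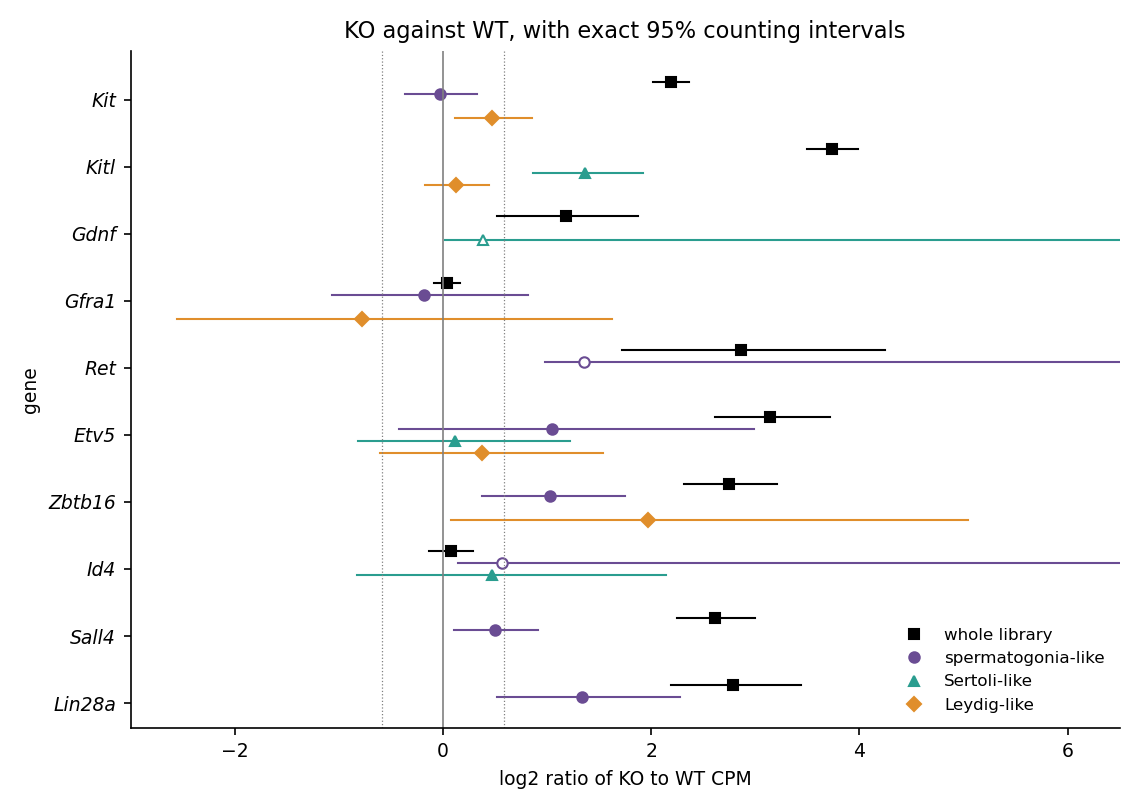
Log2 ratio of KO to WT CPM for each gene in the whole library (black squares), spermatogonia-like (purple circles), Sertoli-like (green triangles) and Leydig-like cells (orange diamonds) where the 2 sums held at least 20 UMIs, with exact 95% intervals cut at the axis limit. Open symbols are ratios with a WT sum of 0 taken as 3 UMIs, and dotted lines mark 1.5-fold. The whole-library values of Kit and Kitl lie above those of the classes plotted.

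The spermatogonia-like class was mixed, and its makeup differed between libraries. Clustered on their own, again without the 10 genes, these cells formed 6 subclusters. The subcluster led by Upp1, Nanos3 and Cd274 had 10 of 20 markers of undifferentiated spermatogonia and was the only 1 that could be named. It held 8 of 188 WT cells, 4.26% (1.85 to 8.21), and 132 of 1062 KO cells, 12.4% (10.5 to 14.6). At a finer clustering of all cells, the spermatogonial cluster led by Upp1 held 8.28% and 22.5%. The subcluster led by Ascl2 and Crabp1 held 57 WT and 317 KO cells, that led by Esx1 and Ctcfl 49 and 238, and that led by Six5 16 and 104. The remaining subclusters, led by Lrrc34 (36 and 188 cells) and by Bpifa3, Prm2 and Tnp2 (22 and 83 cells), had 25.9% and 68.6% of their cells called doublets, and elongating spermatid markers were 16.1% of WT and 12.5% of KO UMIs in the latter.

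Zbtb16, Sall4 and Lin28a had their highest CPM in the undifferentiated subcluster in each library. Zbtb16 had 12 UMIs and 197 CPM (102 to 344) in WT and 105 UMIs and 92.6 CPM (75.7 to 112) in KO. Sall4 had 14 UMIs and 229.8 CPM (126 to 385) in WT and 191 UMIs and 168 CPM (145 to 194) in KO. Lin28a had 5 UMIs and 82.1 CPM (26.6 to 191) in WT and 66 UMIs and 58.2 CPM (45.0 to 74.0) in KO. For all 3 genes the WT value from these 8 cells was the larger and the intervals overlapped, so the summed difference was not seen within the subcluster. Many of their UMIs lay outside it, and in the larger Ascl2 subcluster Sall4 had 29 UMIs and 64.5 CPM (43.2 to 92.6) in WT and 154 UMIs and 63.3 CPM (53.7 to 74.2) in KO.

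The GDNF receptor chain followed the same distribution. Gfra1 had 3 UMIs and 49.2 CPM (10.2 to 144) in WT and 31 UMIs and 27.3 CPM (18.6 to 38.8) in KO in the undifferentiated subcluster, against 2.22 and 2.47 CPM in the Ascl2 subcluster. Round spermatid-like cells had 31.4 and 36.7 CPM of Gfra1, with intervals that overlap those of the undifferentiated subcluster in each library. Ret had no UMI in WT, where 60.5 CPM is the upper limit of the interval, and 28 of the 38 KO UMIs, 24.7 CPM (16.4 to 35.7). Etv5 had 2 UMIs and 32.8 CPM (3.97 to 119) in WT and 20 UMIs and 17.6 CPM (10.8 to 27.2) in KO. At the depth of 8 WT cells a difference between genotypes in these genes was not detectable. Id4 had 0 and 10 UMIs there, the latter 8.82 CPM (4.23 to 16.2).

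Kit ran the other way. In the undifferentiated subcluster it had 1 UMI and 16.4 CPM (0.415 to 91.4) in WT and 17 UMIs and 15.0 CPM (8.73 to 24.0) in KO, and in the Ascl2 subcluster 50 UMIs and 111 CPM (82.5 to 147) in WT and 196 UMIs and 80.6 CPM (69.7 to 92.7) in KO. It then had 27.1 and 46.5 CPM in the Esx1 subcluster and 34.4 and 22.0 CPM in the Six5 subcluster, with overlapping intervals. Among KO spermatogonia-like cells Kit was found in 8.89% of the 45 cells with a Gfra1 UMI and 28.8% of those without, and in 22.9% of the 153 cells with Zbtb16 and 28.8% of those without. In WT Kit was found in 6 of 11 cells with a Gfra1 UMI, 54.5%, and 31.1% of those without, the opposite order, and in 3 of 15 cells with Zbtb16 and 33.5% of those without. With Etv5 the order also differed, 8.82% against 28.6% in KO and 2 of 4 WT cells against 32.1%. The 6 WT cells with Kit and Gfra1 had a median of 17058 UMIs, against 7770 in the class. Of the 13 WT Gfra1 UMIs, 6 lay in the Lrrc34 and 2 in the Bpifa3 subcluster, the 2 rich in doublets. The part of depth and doublets in the WT order was not tested. Zbtb16 in the Ascl2 subcluster was 24.3 CPM (18.5 to 31.3) in KO from 59 UMIs and 6.67 CPM (1.38 to 19.5) in WT from 3. Lin28a there was 29.6 CPM (23.2 to 37.3) in KO and 13.3 CPM (4.89 to 29.0) in WT.

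When the 6 subclusters were weighted equally, the log2 ratio of Zbtb16 turned to -0.55 and that of Etv5 to -0.51, that of Sall4 to -0.27, and that of Lin28a went to 0.07. The value for Kit was -0.01. Equal weighting rests on the 8 WT cells of the undifferentiated subcluster. The share of undifferentiated cells was larger in KO, and its part in the higher summed levels was not tested. Without the Lrrc34 and Bpifa3 subclusters, an alternative added after seeing the data, the ratios were 0.95 for Zbtb16, 1.11 for Lin28a and 0.43 for Sall4. Kit went from -0.03 to -0.33, and Gfra1 from -0.18 to 0.42 on 5 and 39 UMIs, each within the counting interval of its first value.

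**Figure D5:**
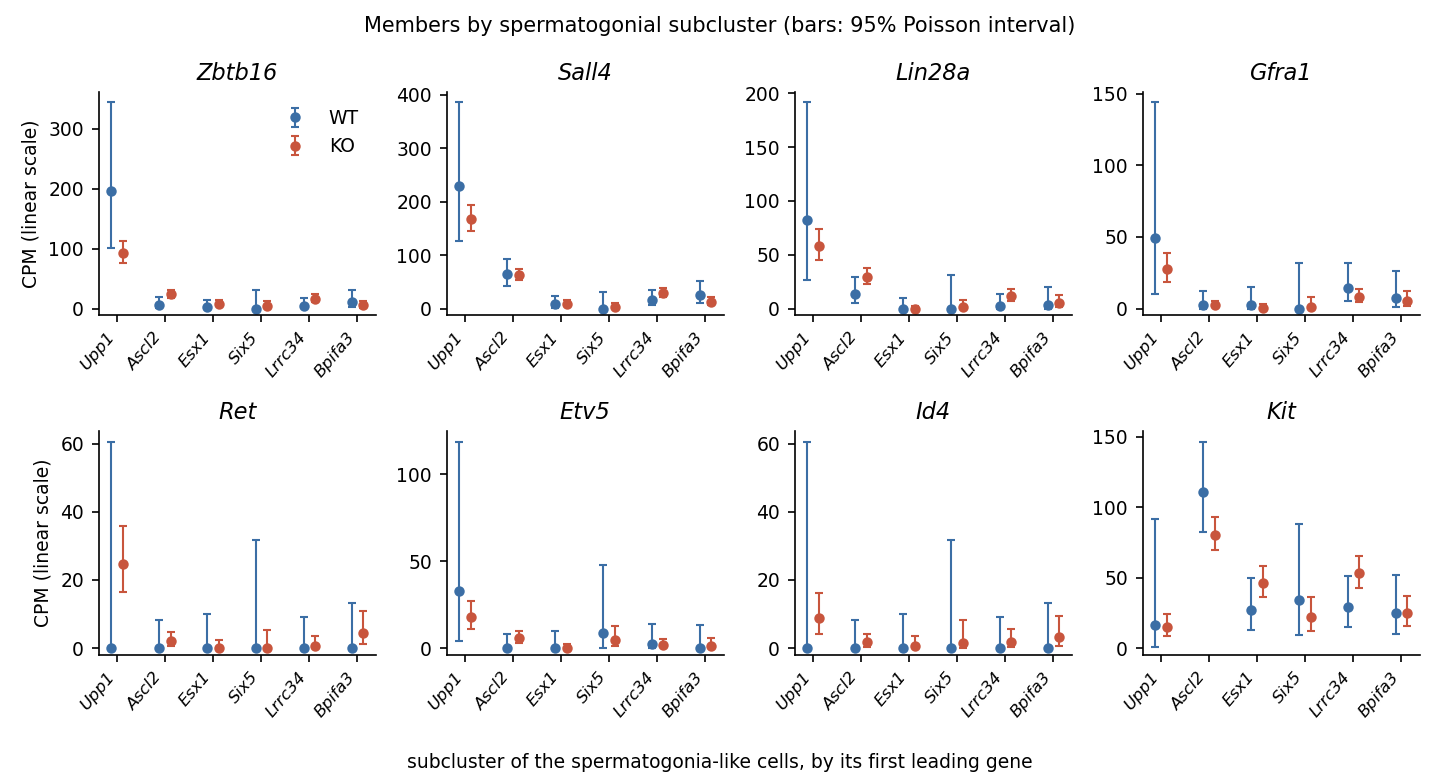
CPM of 8 genes (linear axes) in the 6 subclusters of the spermatogonia-like cells, named by their first leading gene, for WT (blue) and KO (red) with exact 95% Poisson intervals. Zbtb16, Sall4, Lin28a and Gfra1 are highest in the Upp1 subcluster and Kit in the Ascl2 subcluster.

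Regulators known from stem spermatogonia were also present outside them. Id4, an inhibitor of helix-loop-helix factors, had 239 UMIs and 13.1 CPM (11.5 to 14.8) in WT and 205 UMIs and 13.2 CPM (11.5 to 15.1) in KO late spermatocyte-like cells, a log2 ratio of 0.01 (-0.26 to 0.29). In that class Kitl (8 and 16 UMIs) and Zbtb16 (14 and 21 UMIs) were past 1.5-fold higher in KO, 2 of 4 of the genes with at least 20 UMIs, with intervals of the ratio that include 0 on the log2 scale, where 14.2% of all genes were past it higher and 7.69% lower. The Id4 level was highest in the Piwil1 cluster at 27.2 CPM (22.9 to 32.1) and 24.8 CPM (20.7 to 29.4). The class held 68.1% of the Id4 UMIs of the WT library and 54.1% of those of KO, while KO spermatogonia-like cells held 5.80%. Sertoli-like cells also had Id4, 11.2 CPM in WT from 5 UMIs and 15.5 CPM (12.0 to 19.6) in KO from 67, a log2 ratio of 0.47 (-0.82 to 2.14).

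As averages of whole classes, Etv5 had higher levels in Sertoli-like and Leydig-like cells than in spermatogonia-like cells in each library. For the WT Leydig-like cells the intervals overlapped. In the undifferentiated subcluster Etv5 was at 32.8 CPM (3.97 to 119) in WT and 17.6 CPM (10.8 to 27.2) in KO. These intervals overlap those of both somatic classes in each library. Sertoli-like cells had 10 UMIs and 22.3 CPM (10.7 to 41.1) in WT and 105 UMIs and 24.2 CPM (19.8 to 29.3) in KO, a log2 ratio of 0.12 (-0.82 to 1.22), which was -1.19 per UMI of the Sertoli markers. Leydig-like cells had 9 UMIs and 9.04 CPM in WT and 120 UMIs and 11.7 CPM (9.69 to 14.0) in KO, a log2 ratio of 0.37 (-0.60 to 1.53). Zbtb16 in Leydig-like cells had 2 UMIs and 2.01 CPM (0.243 to 7.26) in WT and 81 UMIs and 7.89 CPM (6.26 to 9.81) in KO, a log2 ratio of 1.97 (0.07 to 5.04). Of 5 of the genes with at least 20 UMIs in Leydig-like cells it was the 1 past 1.5-fold higher, and Gfra1 was past it lower (3 and 18 UMIs, log2 ratio -0.78, -2.56 to 1.62), against the 16.9% and 22.3% of all genes given above. In Sertoli-like cells Kitl was the 1 past it higher of 4, where 54% of all genes were. In KO a Zbtb16 UMI was detected in 6.32% of Leydig-like cells and in 0.693% of Sertoli-like cells (thinned 4.24% and 0.249%). Sall4 was at 50.4 CPM in KO spermatogonia-like and 0.487 CPM in KO Leydig-like cells, and Zbtb16 at 25.4 and 7.89 CPM. Spermatogonial transcripts were present in KO Leydig-like cells, with Stra8 at 207 UMIs and 20.2 CPM there and at 0 UMIs in WT. Dmrtb1 and Ccnd2, also spermatogonia markers, were lower in KO Leydig-like cells than in WT (log2 ratios of -0.78 and -0.72). The part of spermatogonial transcripts in the Zbtb16 level of these cells was not tested.

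Sall4 and Lin28a were close to exclusive to spermatogonia-like cells in KO, which held 96.3% of the Sall4 UMIs and 89.1% of the Lin28a UMIs, while in WT these shares were 85.7% and 50%. Lin28a had 26 UMIs in the whole WT library, and 6 of them were in round spermatid-like cells at 0.218 CPM. The macrophage-like cluster, which also had all 8 peritubular myoid markers (0.150% of UMIs in WT, 0.251% in KO), had Gfra1 at 17.3 CPM from 6 UMIs in WT and 13.6 CPM from 16 UMIs in KO. With another kernel of the linear algebra library that cluster held 23 WT and 72 KO cells in place of 28 and 122.

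Summed over whole libraries, 8 of the 10 genes were past 1.5-fold higher in KO and the other two differed by less than counting error. Kitl was 1.86 CPM in WT and 24.8 CPM in KO, a log2 ratio of 3.74 (3.5003 to 3.99). Kit was 4.06 and 18.5 CPM, a log2 ratio of 2.19 (2.02 to 2.37). Also past it higher were Gdnf, Ret, Etv5, Zbtb16, Sall4 and Lin28a, with log2 ratios of 1.18 to 3.14, where 42.5% of 24077 genes were past it higher and 9.93% lower and the median was 0.35. Gfra1 (0.04, -0.08 to 0.16) and Id4 (0.08, -0.13 to 0.29), most of whose UMIs came from spermatids and spermatocytes, differed by less than counting error. In such a sum more cells of a type and more RNA per cell cannot be told apart.

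A library with the WT level of each gene in each class and the KO share of UMIs of each class was computed for comparison. It would hold Kit at 15.3 CPM and Kitl at 17.1 CPM. These stand above the WT library by 1.91 and 3.21 on the log2 scale, which leaves 0.28 and 0.53 to differences within classes. For Etv5 and Sall4 the remainder was 0.34 and 0.43. For Zbtb16 and Lin28a the remainder was larger, 1.15 and 1.30, for Gdnf it was 1.54 and for Ret 3.20. Gdnf and Ret had no UMI in the WT class that held most of their UMIs in KO. That 0 was kept here, so their remainders are larger than a sum set to 3 UMIs would give. For Gdnf no direction can be read, as stated above. All of the remainders carry the counting error of small WT classes.

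The wider pathway was read from 6 lists of 108 genes that did not contain the 10 genes. In spermatogonia-like cells 76 of the 107 genes present in the tables had at least 20 UMIs, of which 26 were past 1.5-fold higher in KO and 6 lower, with a median log2 ratio of 0.27 against 0.03 over all genes, of which 15.1% were past the fold higher and 17% lower. The same shares are the background of the counts for each list that follow. No test was made of these counts, and several list genes are themselves markers of the undifferentiated subcluster whose share differed. A gene with few or no WT UMIs, in the lists or the background, could pass the minimum of 20 UMIs through its KO sum.

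Among 11 genes of the GDNF receptor family and its adaptors 3 were past 1.5-fold higher and 3 lower, with a median of 0.00. The SRC-family kinase Fyn was higher (7 and 113 UMIs, log2 ratio 1.70, 0.61 to 3.05). The neurturin receptor Gfra2 was lower (16 and 34 UMIs, -1.22, -2.12 to -0.27), as was its ligand Nrtn (23 and 63 UMIs, -0.86, -1.57 to -0.10). The adaptor Grb2, the most counted of the list, was at 106 CPM in both libraries.

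Among 25 KIT signal transducers and brakes 7 were past 1.5-fold higher and none lower, with a median of 0.10. Stat3 (15 and 139 UMIs, log2 ratio 0.90, 0.13 to 1.78) and the transcription factor Foxo1 (27 and 232 UMIs, 0.79, 0.21 to 1.43) were higher. The kinase Map2k2 had a ratio of -0.04 (-0.24 to 0.17).

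Among 11 GDNF-responsive and self-renewal genes 5 were past 1.5-fold higher and 2 lower, with a median of 0.52. The zinc finger factor Egr4 differed most, with 4 and 143 UMIs (log2 ratio 2.85, 1.46 to 4.75). Bcl6b, a repressor induced by GDNF, had 2 and 29 UMIs (1.55, -0.43 to 4.66). Mycn was past 1.5-fold lower (23 and 73 UMIs, -0.64, -1.34 to 0.10), with an interval that includes 0. Pou3f1, with 25 and 102 UMIs, had a ratio of -0.28 (-0.92 to 0.41). Bmi1, the most counted, had a ratio of -0.07 (-0.39 to 0.27).

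Among 18 progenitor and differentiation genes 7 were past 1.5-fold higher and 1 lower, with a median of 0.42. Nanos3, an RNA-binding protein of progenitors, had 10 and 174 UMIs (log2 ratio 1.81, 0.90 to 2.90) and the cyclin Ccnd2 32 and 501 UMIs (1.66, 1.14 to 2.22). Sohlh1, a helix-loop-helix factor of differentiating spermatogonia, had 96 and 846 UMIs (0.83, 0.52 to 1.15). Stra8, the retinoic acid target that marks the differentiating state, was 779 and 834 CPM, a log2 ratio of 0.10 (0.01 to 0.18).

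Of 6 ID and E proteins, partners in the pathway of Id4, Id3 was past 1.5-fold higher (9 and 106 UMIs, log2 ratio 1.25, 0.27 to 2.42) and the median was 0.44. Of 18 other niche ligands 5 had enough UMIs and 3 were past 1.5-fold higher, all with few UMIs in WT. Inha (2 and 22 UMIs) and Vegfa (2 and 19 UMIs) had intervals that include 0 on the log2 scale. Igf1, with 0 and 40 UMIs and a log2 ratio of 1.43 against 3 UMIs (exact lower limit 1.06), could only appear as higher. Its level of 4.79 CPM in KO spermatogonia-like cells stood beside 53.7 CPM in KO Leydig-like cells. Leydig markers were 0.0118% of UMIs in WT (11 of 12 markers, with Hsd3b1 at 0) and 0.0285% in KO spermatogonia-like cells (12 of 12), and their part in this was not tested.

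In Sertoli-like cells 32 of 56 list genes were past 1.5-fold higher in KO and 7 lower, beside 54% and 20% of all genes, with a median of 0.87 against 0.72. Inha, the inhibin alpha subunit, was higher with 108 and 2915 UMIs (log2 ratio 1.48, 1.20 to 1.77), and Grb2 with 13 and 442 UMIs (1.81, 1.02 to 2.73). Gfra2 was lower (14 and 24 UMIs, -2.496, -3.505 to -1.43), as was Wnt6 (18 and 90 UMIs, -0.95, -1.69 to -0.13). In Leydig-like cells 29 of 65 were past 1.5-fold higher and 5 lower, beside 16.9% and 22.3% of all genes, with a median of 0.45 against -0.07. Of these, 7 higher and 2 lower came from the 11 progenitor and differentiation genes. Among the 7 were Stra8 (0 and 207 UMIs), Crabp1 (0 and 87), Uchl1 (3 and 149) and Tex15 (10 and 252). The 2 lower were Dmrtb1 (67 and 401 UMIs, log2 ratio -0.78, -1.16 to -0.39) and Ccnd2 (50 and 313 UMIs, -0.72, -1.15 to -0.26). The part of spermatogonial transcripts present in this class in the counts was not tested. Cxcl12, a chemokine of the niche, had 204 and 3483 UMIs (0.73, 0.52 to 0.94), Socs1, a brake on cytokine and KIT signaling, 2 and 138 UMIs (2.74, 0.86 to 5.80), and Inha 146 and 696 UMIs (-1.11, -1.37 to -0.85).

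The genes most like each member were sought over 17 combinations of class and library with at least 20 cells, by Pearson's r of log2(CPM + 1). These points share 2 libraries and the values describe where transcripts lie, with no test. Lin28a was closest to Rhox10 (r = 0.993) and Gng13 (0.991), and Sall4 to Gm17737 (0.975) and Jph1 (0.973). Kitl was closest to Sparc (0.979) and Fxyd6 (0.978), and Gfra1 to the ADAM family gene Adam29 (0.952). Kit, with its split between spermatogonia and Leydig cells, reached 0.902 at most, with 2810410L24Rik. Etv5 was closest to Zfp146 (0.9495) and Id4 to Tspyl5 (0.917).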

How the data were processed

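Testis cells of 1 WT and 1 Alkbh5 KO library were counted by the authors as UMIs per gene and barcode, and the deposited tables hold these raw counts with no normalization. The submitters' processing notes name FastQC 0.11.7, fastp 1, STAR 2.5.3a, featureCounts 1.6.2 and Seurat. The study's methods name the human build GRCh38 while the genes carry mouse symbols, so coordinates were taken from GENCODE vM21 (GRCm38), in which 35502 of the 36547 symbols were found. A gene listed in 1 table only was taken as 0 in the other.

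Cells with over 500 genes were integrated and clustered in Seurat 5.3.0 (R 4.3.3) with the settings of the study's methods (2000 variable features, 20 anchor dimensions, 30 principal components, resolution 0.3), leaving out the 10 genes, 2 of which were among those features. A cluster took a name, as "-like", where at least 3 markers were detected in at least 10% of its cells at 2-fold or more and its 10 leading genes did not favor another class. Class names were rebuilt and may differ from the study's. Cluster borders moved somewhat with the kernel of the linear algebra library, which was fixed, and another kernel was an alternative. Scrublet (in scanpy 1.11.5) marked doublets, which were kept. Spermatogonia-like cells were clustered again with 10 principal components at resolution 0.3.

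UMIs were summed per class and library and divided by the UMIs of the class, times 1e+06 (CPM). Sums carry exact Poisson intervals, shares Clopper-Pearson intervals and ratios the exact conditional interval, all at 95%. A sum of 0 was set to 3 UMIs for a fold, and was kept at 0 in the library computed from WT levels. A ratio of 1.5 with at least 20 UMIs in the 2 sums marks a gene as past the fold. For thinned shares each cell was reduced to 5729 UMIs, and shallower cells, 362 of WT and 914 of KO, were left out. The calculation was tested on simulated sums. Named were the 10 genes, class markers, and per list up to 4 genes with the largest ratio and up to 4 with the most UMIs, of which examples are given. Stra8 and Igf1 in Leydig-like cells come from these lists too. For members with at least 100 UMIs the 3 most similar genes were sought. The members and lists were chosen with earlier results of these data known. Alternatives changed the clustering, doublets, cell filter, totals, depth and weighting. Some named results are not reported here.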

Additional observations from a re-analysis of the deposited data

How the results depend on the processing

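Of 148 values recomputed for the KO to WT ratios and the list counts, 132 stayed within the counting interval of the reported value, or within 1.5 times the reported count. Most alternatives reuse largely the same UMIs, and the interval is wide for sparse genes and open above where WT has no UMI. The number 132 is therefore not a measure of how stable a sparse ratio is. For Gfra1 in spermatogonia-like cells the values ran from -0.74 to 0.42, all within the interval. With equal weight per subcluster the log2 ratio in spermatogonia-like cells reversed for Etv5 (-0.51) and Zbtb16 (-0.55) and moved for Sall4 (-0.27) and Lin28a (0.070). It could not be given for Ret and Id4, which have no WT UMI. With thinned cells the log2 ratio against 3 WT UMIs was 0.56 for Ret and -0.31 for Id4. Without the subclusters led by spermatid genes it was 0.91 and -0.13. Each rests on fewer KO UMIs against the same 3. For Gdnf in Sertoli-like cells the log2 ratio against 3 UMIs was -0.059 without integration, -0.72 with thinned cells and -0.92 per UMI of the class markers. That last scaling also moved Kitl (0.055) and Etv5 (-1.19) in Sertoli-like cells. The 26 list genes past the fold higher became 11 at a 2-fold limit, and the 6 lower became 1 at 2-fold and 11 when 1 UMI in each sum sufficed. The share of the Upp1 group also moved, as given above. The scaling by class markers, the removal of subclusters or stromal cells and the other kernel of the linear algebra library were added after seeing the data. No paired analysis was possible because each genotype had 1 library.

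With 8 WT cells in the undifferentiated subcluster and 47 in the Sertoli-like class, differences in Ret, Etv5, Id4 and Gdnf could not be resolved at this depth.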
